A study of Caenorhabditis elegans with 4 samples.

Results

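The FMRFamide-like peptide (*flp*) genes were described in 2 wild-type libraries of sorted *C. elegans* neurons (n = 2 replicates). The members are all genes whose name is *flp* followed by a number, and 31 of the 41560 gene symbols of the deposited values met this rule, each with 1 locus. They are also all 31 *flp* genes of the WBcel235 annotation (Ensembl release 115). The animals were of strain CZ631, which carries the transgene *juIs14*[*Pacr-2*::*gfp*] and is labelled wild type, and were collected as young adults after 72 hours at 20°C. The *acr-2* promoter drives GFP in ventral cord cholinergic motoneurons, but the label is not exclusive to them, as head and tail neurons of unknown identity carry it too. GFP-positive cells were collected by fluorescence-activated cell sorting (FACS). The 2 *acr-2(gf)* samples of the series, from strain CZ5808, were not analysed here. With 1 condition there was no group to test, so every value below is a description of these libraries, given per library or as a mean with the SD over n = 2. Nothing in the sources used here says that the libraries came from separate cultures, so the SD may be technical.

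Each *flp* gene encodes a precursor protein that is cut in dense core vesicles into 1 or more short peptides, which end in an amidated Arg-Phe. The peptides are released from neurons and act through G-protein-coupled receptors on other cells, as modulators of movement, feeding, egg laying and sleep. The family is large in *C. elegans*, and many neurons make more than 1 of its members.

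Levels are given as FPKM, the fragments per kilobase of gene model relative to all mapped reads, as deposited from Cufflinks. Genes with more than 10 FPKM in each of the 2 libraries are referred to as expressed. The FPKM of all loci summed to 1828630 in library 1 and 1663310 in library 2, and the read depth on genes is unknown because counts were not analysed here. All 5 cholinergic markers, from *unc-3* (70.6 and 118 FPKM) to *unc-17* (395 and 573 FPKM), and all 7 pan-neuronal markers were expressed, as was *acr-2* itself (58.3 and 53.1 FPKM). Markers of other cells were present too. Of the GABAergic markers 2 of 4 were expressed, with *unc-25* at 226 and 536 FPKM, and so were 3 of 4 of body-wall muscle, 2 of 4 of pharyngeal muscle, 3 of 5 of intestine, 3 of 5 of hypodermis and 5 of 5 of germline. The highest markers of body-wall muscle, *pat-10* (3693 and 3957 FPKM), hypodermis, *col-19* (2214 and 2652 FPKM), and intestine, *asp-1* (1726 and 741 FPKM), were above *unc-17* in both libraries. The highest pharyngeal and germline markers, *tni-4* (112 and 120 FPKM) and *cpg-2* (483 and 372 FPKM), were not. Of the other muscle, hypodermal and intestinal markers, only muscle *unc-27* (705 and 711 FPKM) was above *unc-17* in both libraries. Some were far below it, as *myo-3* of muscle (8.43 and 13.6 FPKM), *dpy-7* of hypodermis (0.296 and 3.13 FPKM) and *ges-1* of intestine (1.46 and 0.863 FPKM). In bulk RNA a smaller number of cells of a type and less RNA per cell cannot be told apart.

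Nearly the whole *flp* family was detected. Of the 31 genes, 30 were expressed, against 16.5% of all gene symbols and 32.9% of the 17886 protein-coding symbols. Over 100 FPKM in both libraries stood 24 members, against 7.88% of protein-coding symbols, and over 1000 FPKM stood 8 members, against 1.37%. The median of the members' mean FPKM was 408, beside 3.72 for protein-coding symbols and 45.7 for expressed symbols. The *flp* genes were 0.0746% of the symbols and held 2.97% of the summed FPKM in library 1 and 3.74% in library 2 (3.35% ± 0.544, SD, n = 2). The family median differed between libraries, at 536 FPKM in library 1 and 260 FPKM in library 2.

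**Figure D1:**
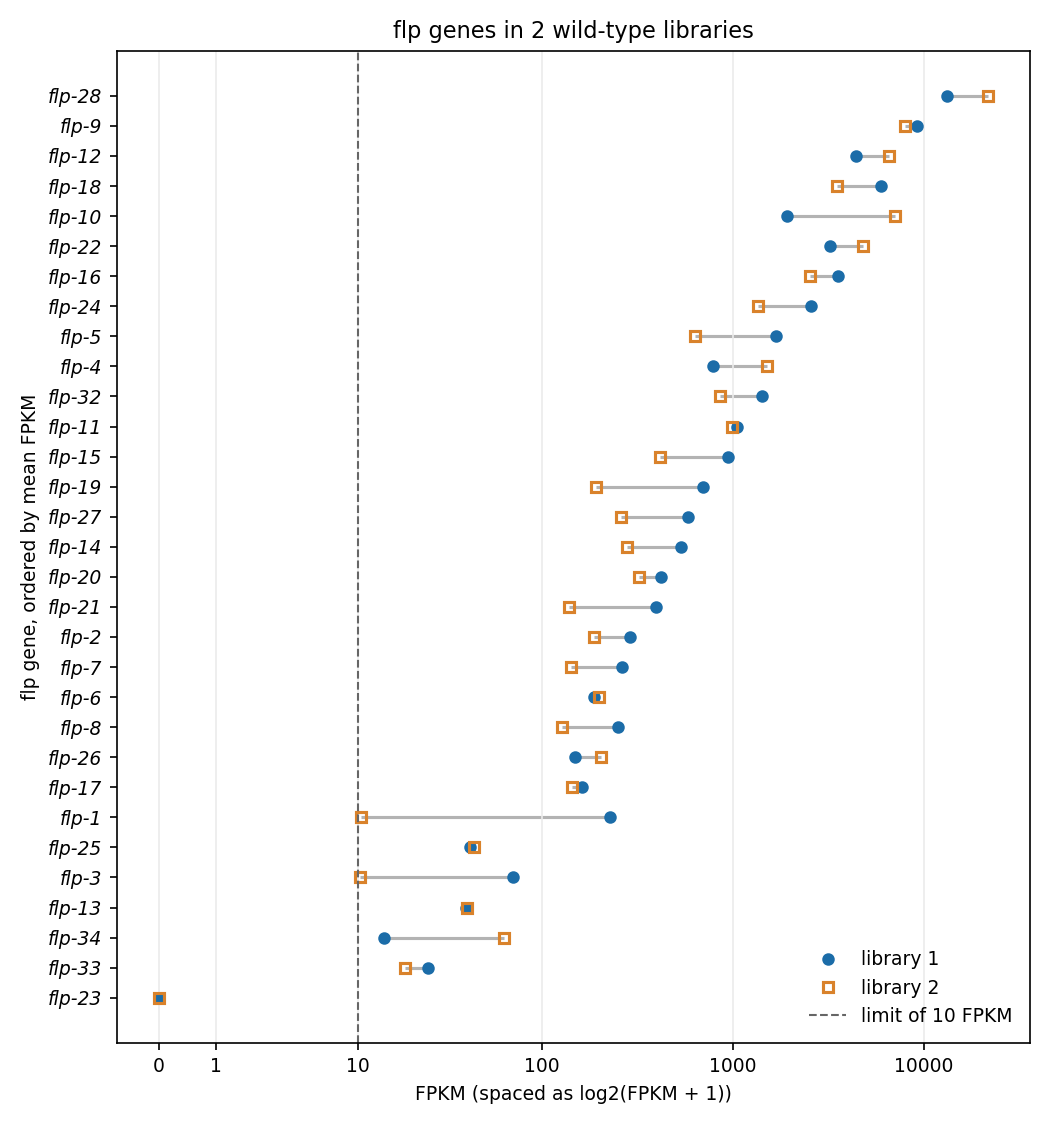
FPKM of each *flp* gene in library 1 (filled circles) and library 2 (open squares), spaced as log2(FPKM + 1) and ordered by mean, with grey lines joining the libraries and a dashed line at 10 FPKM. The genes run from *flp-28* at 13232 and 21648 FPKM down to *flp-23*, listed at 0 in both libraries.

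A few members held most of this signal. The 12 genes with a mean of at least 1000 FPKM made up 90.2% of the *flp* FPKM in library 1 and 95.5% in library 2, and *flp-28* alone made up 24.4% and 34.8%. *flp-28* (WBGene00044686, chromosome X, 10087314 to 10087966, minus strand in WBcel235) had 13232 FPKM in library 1, with a lower 95% bound of 13028, and 21648 FPKM in library 2, with a lower bound of 21413. By mean it ranked 1 among all symbols, and by library it ranked 4 and 1. Its FPKM was 33.5 times that of the vesicular acetylcholine transporter gene *unc-17* in library 1 and 37.8 times in library 2. *flp-9* (WBGene00001452, chromosome IV, 12754558 to 12757570) came next at 9194 and 7916 FPKM, rank 11 by mean, and its libraries differed by only 1.16 times.

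*flp-12* (WBGene00001455, chromosome X), known from SMB head motoneurons, had 4399 and 6530 FPKM. *flp-18* (WBGene00001461, chromosome X), whose peptides activate NPR-1, NPR-4 and NPR-5, had 5960 and 3517 FPKM. This was 102 times the FPKM of *acr-2* in library 1 and 66.2 times in library 2. *flp-10* (WBGene00001453, chromosome IV), a source of ligands of the receptor EGL-6, had 1921 and 7090 FPKM, so that it stood at place 8 in the family in library 1 and at place 3 in library 2. *flp-22* (WBGene00009562, chromosome I) had 3206 and 4783 FPKM, and *flp-16* (WBGene00001459, chromosome II) had 3562 and 2539 FPKM. Their order was settled only in part. *flp-12* was above *flp-22* in both libraries, while *flp-18* stood at place 3 in the family in library 1 and at place 6 in library 2. *flp-12* and *flp-18* had means of 5465 ± 1507 and 4739 ± 1727 FPKM (SD, n = 2). Those of *flp-10* and *flp-22* were 4506 ± 3655 and 3995 ± 1115 FPKM.

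The rest of the genes over 1000 FPKM included 2 with known parts in sleep. *flp-24* (WBGene00016028, chromosome III), which acts in sleep after cellular stress, had 2566 and 1362 FPKM. *flp-11* (WBGene00001454, chromosome X), the main sleep-promoting peptide gene of the RIS interneuron, had 1055 and 992 FPKM, an SD of 44.5 on a mean of 1024. *flp-5* had 1683 and 635 FPKM, *flp-4* had 789 and 1508 FPKM and *flp-32* had 1418 and 855 FPKM. The means of *flp-5*, *flp-4*, *flp-32* and *flp-11* fell between 1024 and 1159 FPKM and did not differ beyond their spread. Of the 10 highest members of each library, 8 were shared, and of the 5 highest, 3 were.

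The 13 members with means of 100 to 1000 FPKM were mostly higher in library 1. *flp-15*, which encodes ligands of NPR-3, had 947 and 419 FPKM, *flp-19* had 699 and 192 FPKM, and *flp-27* had 581 and 260 FPKM. *flp-14* had 536 and 280 FPKM. All 4 were higher in library 1 by 1.92 to 3.64 times. *flp-20*, which acts in arousal and is known from touch receptor neurons, had 421 and 322 FPKM. *flp-21*, a source of an NPR-1 ligand, had 397 and 139 FPKM, and *flp-2*, which promotes arousal, had 291 and 188 FPKM. *flp-7*, whose peptides act on fat loss, had 262 and 142 FPKM, and *flp-8* had 251 and 128 FPKM. These 5 too were higher in library 1.

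*flp-6* (188 and 200 FPKM) and *flp-17* (163 and 144 FPKM) stayed closer between libraries. *flp-26* had 149 and 205 FPKM and differed by 1.37 times, a little more than *flp-20* at 1.31 times. *flp-1*, the first gene of the family to be cloned in *C. elegans* and a modulator of locomotion, was the opposite case. It had 229 FPKM with a lower bound of 218 in library 1 and 10.5 FPKM with a lower bound of 8.64 in library 2, so its mean of 120 ± 154 FPKM (SD, n = 2) described neither library, and its count as expressed rested on a value just over the limit.

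Only 6 members had means under 100 FPKM. *flp-25* had 41.3 and 43.3 FPKM, and *flp-13*, which acts with *flp-24* in stress-induced sleep, had 39.6 and 40.1 FPKM, an SD of 0.383. *flp-3* had 70.1 and 10.3 FPKM, and *flp-34* had 14.1 and 63.2 FPKM. *flp-33* had 24.5 and 18.4 FPKM. *flp-25*, *flp-13*, *flp-3* and *flp-34* had means between 38.7 and 42.3 FPKM, but the first 2 were nearly equal in the libraries and the last 2 were not. *flp-23* (WBGene00017693, chromosome III) was the only member listed at 0 in both libraries.

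Set against the other peptide families, the *flp* genes had a median close to that of the *nlp*, *pdf* and *ntc* genes and stood above the insulin-like *ins* genes. Of 46 *nlp*, *pdf* and *ntc* genes 38 were expressed, with a median of 385 FPKM, and they held 3.11% of the summed FPKM in library 1 and 2.58% in library 2. The highest were *nlp-40* (12264 and 6417 FPKM), *nlp-9* (8737 and 8800 FPKM) and *nlp-21* (6671 and 7831 FPKM). Of 39 *ins* genes 9 were expressed, with a median of 2.47 FPKM. The *ins* signal came mainly from *ins-17*, at 3055 and 1070 FPKM, followed by *ins-28* (747 and 124 FPKM) and *ins-1* (74.9 and 34.6 FPKM). The share of the *flp* genes was the only one of the 3 to be higher in library 2. Of its most abundant members *flp-28*, *flp-10*, *flp-12* and *flp-22* were higher there, while 20 of the 30 expressed members had a lower FPKM in library 2.

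**Figure D2:**
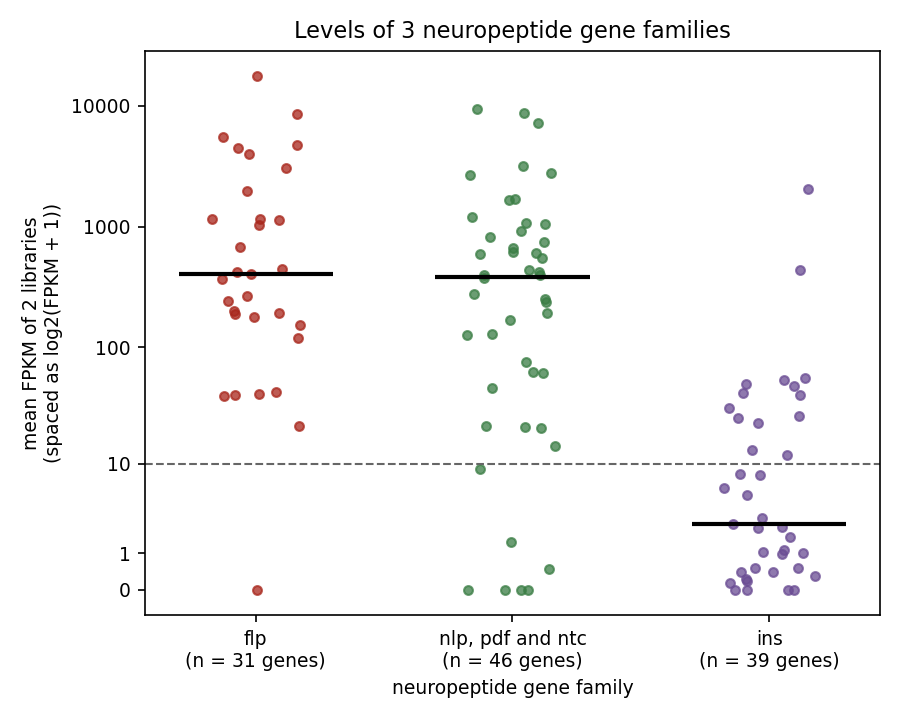
Mean FPKM over 2 libraries of each gene (points, spaced as log2(FPKM + 1)) in the *flp*, the *nlp*, *pdf* and *ntc*, and the *ins* families, with the family median as a black bar and a dashed line at 10 FPKM. The medians are 408, 385 and 2.47 FPKM.

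The spread between the replicates was wide for this family, as it was for the other peptide families. The log2 ratio of library 2 over library 1, with a pseudocount of 1 and centred on the median of the 6839 expressed symbols, had a median of -0.56 over the 30 expressed *flp* genes, and it was below 0 in 23 of them. At least 2-fold lower in library 2 were 10 members, against 7.93% of expressed symbols, and at least 2-fold higher were 2 members, against 4.8%. The genes lower in library 2 were *flp-1* (-4.45 on the centred log2 scale), *flp-3* (-2.77), *flp-19* (-1.98), *flp-21* (-1.63), *flp-5* (-1.52), *flp-15* (-1.30), *flp-27* (-1.28), *flp-8* (-1.09), *flp-14* (-1.06) and *flp-24* (-1.03). The genes higher in library 2 were *flp-34* (1.96) and *flp-10* (1.76). For comparison, the 10th and 90th percentiles of all expressed symbols were -0.86 and 0.76. Of the 38 expressed *nlp*, *pdf* and *ntc* genes, 13 were at least 2-fold lower in library 2 and 1 at least 2-fold higher. Among the 9 expressed *ins* genes these counts were 4 and 2, so the spread was not particular to the *flp* genes.

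**Figure D3:**
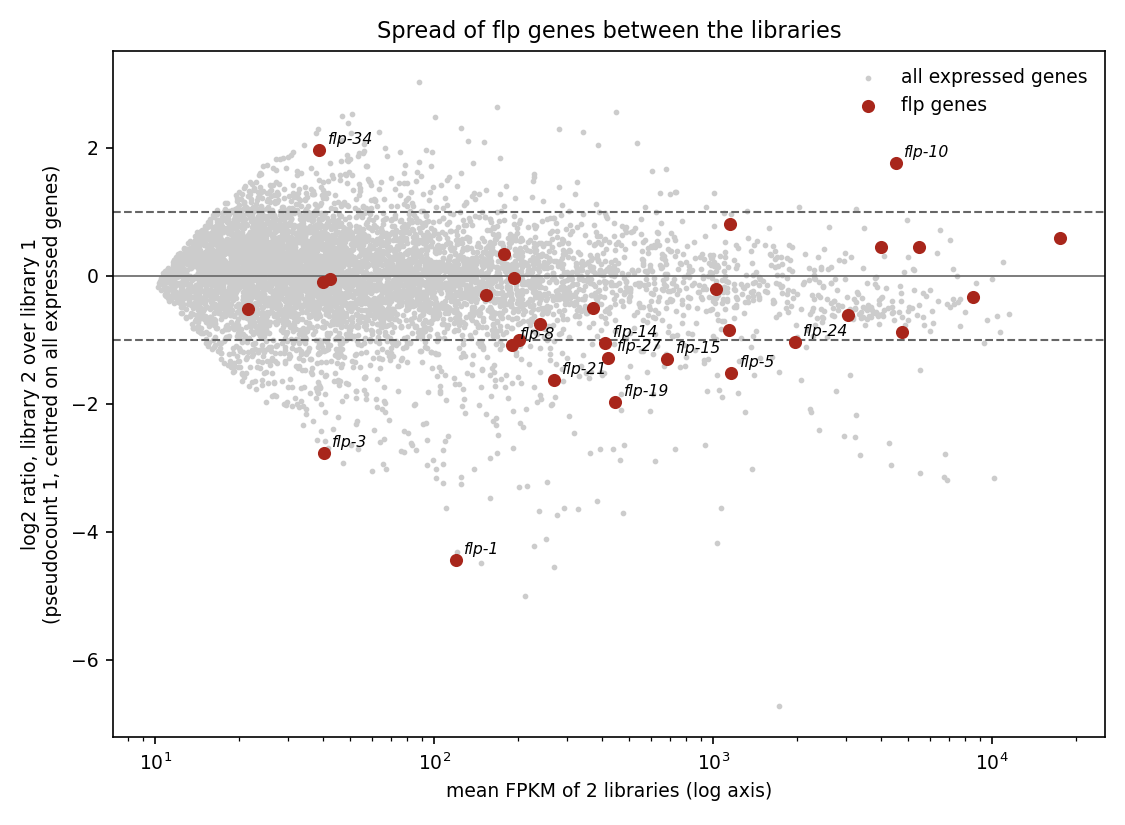
Centred log2 ratio of library 2 over library 1 against mean FPKM (log axis) for the 6839 expressed symbols (grey) and the 30 expressed *flp* genes (red), with dashed lines at 2-fold. The 10 named *flp* genes below the lower line and the 2 above the upper line are those at least 2-fold apart.

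The direction of the family depended in part on the scaling. With upper-quartile scaling, not centred, 15 expressed members were lower and 15 higher in library 2, and the median log2 ratio was -0.026, but that scaling also moved the median of all expressed symbols to 0.54. Each scaling shifts all genes of a library by 1 factor, so the gap between the family and the other expressed symbols is the same under all of them by construction, apart from the pseudocount. The lower 95% bound of the higher library exceeded the FPKM of the other in 27 of the 30 members, and the same held for 86.2% of expressed symbols, so the bounds that Cufflinks gave were narrower than the gap between libraries for most genes and the members did not stand out in this.

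Other genes also shifted between the libraries. The *nlp*, *pdf* and *ntc* genes had the same median centred log2 ratio, -0.56 over 38 genes, and 28 of them were below 0. The pan-neuronal markers went the other way, with a median centred log2 ratio of 0.38 and 6 of 7 above 0. They summed to 5808 FPKM in library 1 and 7478 FPKM in library 2. The 5 cholinergic markers summed to 956 and 1310 FPKM, with a median centred ratio of 0.41. The 4 GABAergic markers, all above 0 on the centred scale, summed to 253 and 638 FPKM. The 5 intestinal markers summed to 2881 and 1267 FPKM, but among them the defining transcription factor gene *elt-2* was low and higher in library 2, at 1.68 and 5.36 FPKM. The 5 germline markers summed to 703 and 649 FPKM. Their part in the shift of the *flp* genes was not tested.

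Several *flp* genes are known from neurons outside the ventral cord, so the markers of those neurons were looked up beside them. The look-up covered only the neurons named. Other cells that may make the same peptides, ventral cord motoneurons among them, were not set beside these genes. *flp-17*, which is known from the carbon dioxide-sensing BAG neurons, had 163 and 144 FPKM, while the 4 BAG markers *gcy-9*, *gcy-31*, *gcy-33* and *ets-5* reached at most 0.823 FPKM in library 1 and 3.65 FPKM in library 2. *flp-1*, known from AVK, had 229 and 10.5 FPKM, while the AVK transcription factor gene *fax-1* had 0.0288 and 0.142 FPKM. *flp-11*, known from RIS, had 1055 and 992 FPKM. Of the RIS markers, *aptf-1*, needed for *flp-11* expression in RIS, was listed at 0 in both libraries, and the homeobox gene *lim-6*, also used in other neurons, had 193 and 79.6 FPKM.

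The same look-up was made for 2 sleep genes of the ALA neuron and for sensory neurons. *flp-24* was at 2566 and 1362 FPKM and *flp-13* at 39.6 and 40.1 FPKM, while *ceh-17* had 0 and 0.449 FPKM, *ver-3* had 1.02 and 2.11 FPKM and *ceh-14* had 6.81 and 8.30 FPKM. *flp-8*, known from the oxygen-sensing URX neurons, was above the 5 soluble guanylate cyclase genes of URX, AQR and PQR, which lay between 0 and 2.29 FPKM in library 1 and between 0.160 and 2.81 FPKM in library 2. For *flp-6*, known from the salt-sensing ASE neurons, *che-1*, *gcy-6* and *gcy-7* were under 0.1 FPKM in both libraries and *gcy-5* had 5.46 and 1.54 FPKM. The 4 markers of AFD, the thermosensory neuron that also makes FLP-6, reached at most 1.03 FPKM in library 1 and 1.65 FPKM in library 2. In these 7 neuron types the marker genes were thus under 10 FPKM in both libraries, apart from *lim-6*, where the *flp* gene was over it. A low marker does not show that a cell type was absent. Among GABAergic markers, *unc-30* had 8.08 and 11.4 FPKM beside *unc-25* at 226 and 536 FPKM.

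*flp-20* had a mixed setting, with some markers over the limit of 10 FPKM and some under it. Of the 6 touch receptor markers, the tubulin genes *mec-7* (158 and 198 FPKM) and *mec-12* (1011 and 1652 FPKM), the tubulin acetyltransferase gene *mec-17* (221 and 341 FPKM) and *mec-18* (15.8 and 27.5 FPKM) were expressed, and these 4 were all higher in library 2, whereas *flp-20* was lower there. The channel gene *mec-4* had 2.01 and 2.60 FPKM and the homeobox gene *mec-3*, which specifies these cells, had 1.23 and 5.02 FPKM. For the RIM interneuron, a known source of FLP-18, the markers were listed together with those of RIC. *tdc-1* had 27.9 and 33.4 FPKM, *cex-1* had 79.6 and 201 FPKM and *tbh-1* had 89.5 and 152 FPKM. All 3 were higher in library 2, where *flp-18* was lower.

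**Figure D4:**
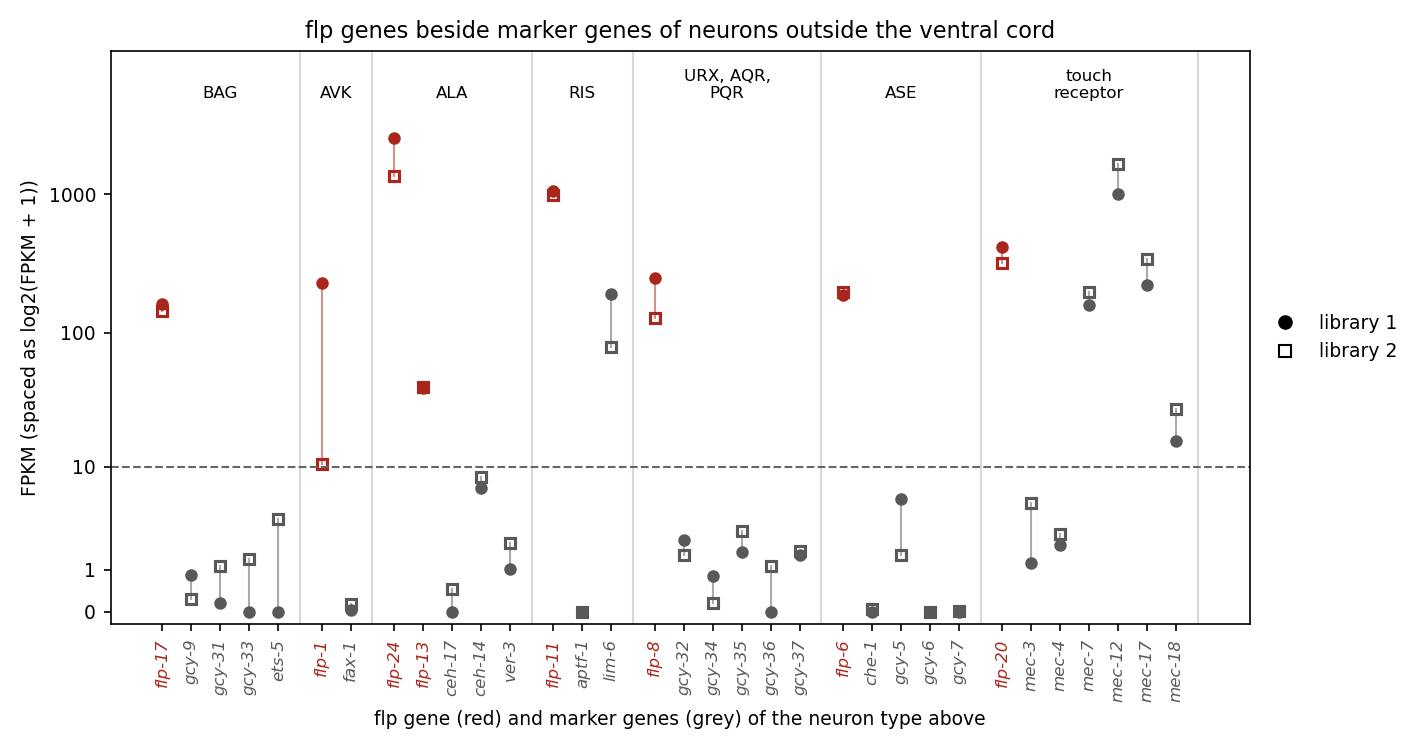
FPKM, spaced as log2(FPKM + 1), of *flp* genes (red) beside marker genes (grey) of neurons known to make their peptides, in library 1 (circles) and library 2 (squares), with a dashed line at 10 FPKM. Of the markers shown outside the touch receptor group, *lim-6* alone is over 10 FPKM, and all the *flp* genes shown are over that limit. The RIM and RIC markers, over 10 FPKM, are not shown.

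The genes that turn FLP precursors into peptides were high as well. The proprotein convertase gene *egl-3* had 1785 and 1894 FPKM, its chaperone gene *sbt-1* had 4963 and 4464 FPKM and the carboxypeptidase E gene *egl-21* had 2769 and 2349 FPKM. The amidation enzymes *pghm-1* (2138 and 1668 FPKM) and *pgal-1* (2374 and 2401 FPKM), which act in sequence on the glycine at the peptide end, were at a similar level, and the bifunctional *pamn-1* was lower at 25.3 and 62.1 FPKM. Between libraries *egl-3*, *sbt-1*, *egl-21*, *pghm-1* and *pgal-1* kept centred log2 ratios of -0.48 to -0.04. On the same list *pamn-1* had 1.14 and the breakdown gene *dpt-1* had 1.21. The 25th and 75th percentiles of all expressed symbols were -0.40 and 0.39. Of the list of 14 processing and breakdown genes 11 were expressed, and the median ratio of those was 0.09.

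Other convertases and the peptidases were far below. *kpc-1* had 110 and 131 FPKM, *bli-4* 24.9 and 32.5 FPKM and *aex-5* 8.30 and 8.16 FPKM. The carboxypeptidase D genes *cpd-2* and *cpd-1* had 90.9 and 105 FPKM and 4.01 and 2.55 FPKM. The neprilysin genes *nep-2* and *nep-1*, peptide-degrading enzymes, had 42.5 and 58.3 FPKM and 8.06 and 11.2 FPKM, and *dpt-1* had 22.8 and 58.8 FPKM. Dense core vesicle genes were expressed in 10 of 10 found, the 11th name, *rab-2*, being another name of *unc-108*. They ranged from *cccp-1* and *rund-1*, at 19.6 and 21.4 FPKM in library 1, to *ida-1* (961 and 1453 FPKM), *unc-108* (1441 and 1506 FPKM) and *egl-3*, and *unc-31*, the CAPS gene needed for release of these vesicles, had 48.0 and 65.7 FPKM. All 10 were higher in library 2 before centring.

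Receptors of FLP peptides were mostly low beside their ligands' genes. Of 14 receptor genes 6 were expressed, against 32.9% of protein-coding symbols. The list median was 6.82 FPKM, beside 3.72 FPKM for protein-coding symbols. The receptors named here were picked for their known ligands after the values were seen. *npr-5*, a receptor of FLP-18, was the highest at 50.2 and 99.9 FPKM, while *npr-1* (12.99 and 16.37 FPKM) and *npr-4* (7.45 and 3.95 FPKM) were lower. *dmsr-1*, the receptor of FLP-13, had 46.2 and 47.2 FPKM and was thus at the level of *flp-13* itself (39.6 and 40.1 FPKM). *egl-6*, the receptor of FLP-10 and FLP-17, had 2.55 and 9.63 FPKM. The receptors *frpr-3* for FLP-20 (6.09 and 1.12 FPKM), *frpr-18* for FLP-2 (9.90 and 4.49 FPKM) and *npr-11* for FLP-34 (1.83 and 2.05 FPKM) did not pass the limit. *npr-3* (19.3 and 16.8 FPKM), *frpr-7* (20.0 and 10.5 FPKM) and *dmsr-7* (40.8 and 58.8 FPKM) passed it.

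On the chromosomes, 13 of the 31 *flp* genes (41.9%) lay on X, beside 13.7% of protein-coding symbols, and the rest were spread with 2 on I, 3 on II, 5 on III, 5 on IV and 3 on V. Members on X had a median of 445 FPKM and those elsewhere 338 FPKM, while protein-coding symbols on X and elsewhere had medians of 4.96 and 3.43 FPKM. On X were 6 of the 12 members over 1000 FPKM. A group of neighbours on X held genes of unlike level. *flp-28*, *flp-3* (10091946 to 10092964) and *flp-2* (10094430 to 10095245) all lie on the minus strand within 1 intron of 8464 bp (10087070 to 10095533) of *W07E11.1*, a gene on the plus strand. The deposited loci of *flp-28* and *flp-3* were 4260 bp apart and those of *flp-3* and *flp-2* 1710 bp. In library 1 the FPKM of *flp-28* was 189 times that of *flp-3* and 45.4 times that of *flp-2*, and in library 2 it was 2102 times and 115 times. *W07E11.1* had 41.4 and 57.1 FPKM, and the counting is not stated to use strand, so reads from its intron and from the *flp* genes could not be told apart.

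*flp-1* was placed in the same way, in an intron of 1882 bp of *daf-10* on the opposite strand of chromosome IV. *daf-10*, a gene of ciliated sensory neurons, had 0 and 0.563 FPKM, and so stayed near 0 in both libraries while *flp-1* went from 229 to 10.5 FPKM. In all, 9 members overlapped another deposited locus. For *flp-32*, *flp-14*, *flp-21*, *flp-17* and *flp-34* every overlapping locus was listed at 0 in both libraries.

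The *flp* genes are short, and the models behind the FPKM were shorter than the annotated genes. Coding length in WBcel235, taken from the longest isoform with its stop codon, ran from 201 to 627 bp with a median of 288 bp, beside 993 bp for protein-coding symbols, and was split over 2 to 6 coding exons. In 30 of 31 members the span of the deposited locus equalled the span from start to stop codon of an annotated isoform, or of all isoforms together, so the models held no untranslated regions; the exception was *flp-23*. The same held for 89.4% of protein-coding symbols. For *flp-28* the deposited locus spanned 322 bp with 216 bp coding, and the annotated gene 653 bp. For *flp-18* the spans were 1862 bp and 6374 bp, and for *flp-4* 720 bp and 6727 bp.

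Level and length went together within the family. The 17 members with under 300 bp coding had a median of 1137 FPKM and the 14 longer ones 191 FPKM, and 9 of the 12 members over 1000 FPKM were under 300 bp. The longest member, *flp-18* at 627 bp, was an exception with a mean of 4739 FPKM. Among all 4406 protein-coding symbols with a coding length of 201 to 627 bp, 36.9% were expressed and the median was 4.59 FPKM. Most symbols behind that median were not expressed, so it cannot show how model length bears on FPKM. How much the FPKM of models this short depends on the fragment length assumed for single-end reads was not tested.

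**Figure D5:**
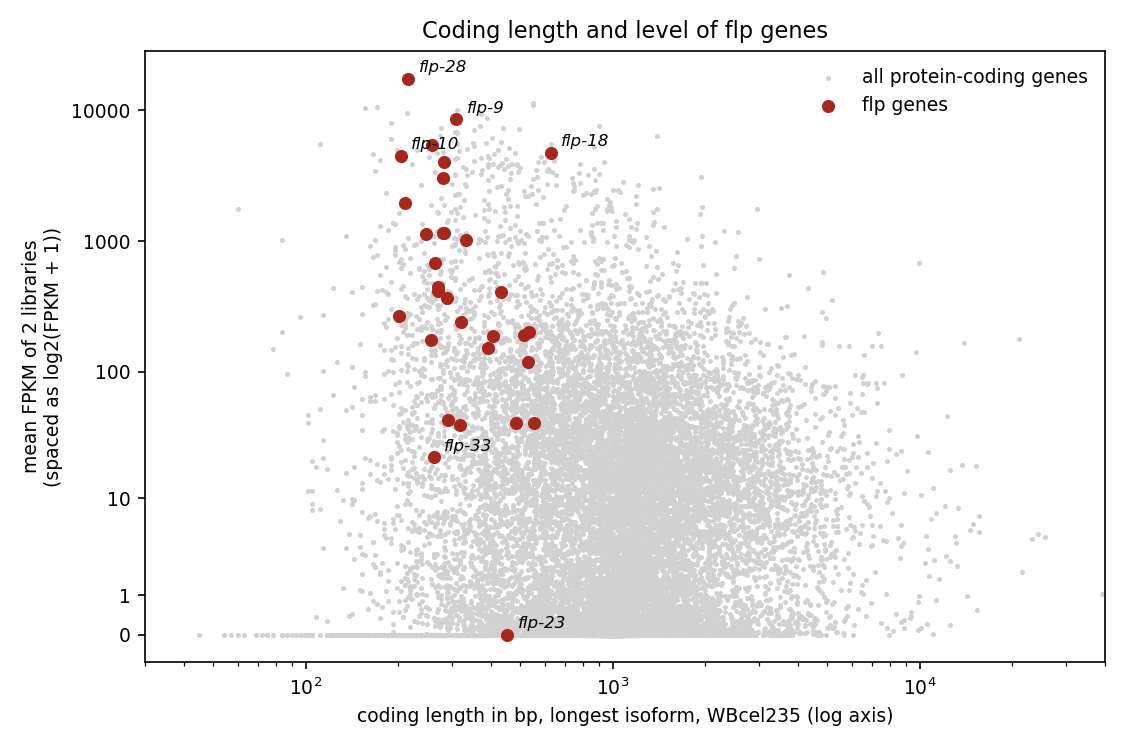
Mean FPKM over 2 libraries, spaced as log2(FPKM + 1), against coding length (log axis) for all protein-coding symbols (grey) and the 31 *flp* genes (red). The *flp* genes lie between 201 and 627 bp, and 30 of them lie above the median of 4.59 FPKM of all symbols in that range.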

How the data were processed

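The authors sorted GFP-positive neurons, prepared libraries with an Illumina TruSeq kit, sequenced single-end reads, mapped them with TopHat and computed the deposited FPKM values and their lower 95% bounds with Cufflinks. The build is ce10 per the submitters' processing notes. Versions, the annotation and the strand setting are not given in the sources used here. The upper bounds, 2 columns of values, were not used.

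The 2 tables were joined on transcription start sites and locus over 42518 loci, and 11 names that had turned into dates in library 1 were taken from library 2. Libraries are numbered as deposited, and the link to the numbered samples is by strain only. For a symbol with several loci the one with the highest mean was kept. Expressed means an FPKM over 10 in both libraries. Ratios are log2((library 2 + 1)/(library 1 + 1)), centred on expressed symbols, and the code for them was tested on simulated data. No ce10 coordinate was compared with WBcel235, only lengths. The rule accounted for every *flp* gene, allowed any gene of a list of at most 12 genes to be named, and took the 3 highest of other peptide families. The lists of processing genes and of receptors hold 14 genes each, so naming their genes went beyond this rule. The members and lists were chosen with earlier results of these data known. Alternatives were other FPKM limits, the lower bound, the mean, TPM, upper-quartile scaling, a pseudocount of 0.1, no centring and leaving out a library. The calculations used Python 3.11.15, numpy, pandas and matplotlib.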

Additional observations from a re-analysis of the deposited data

How the results depend on the processing

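The number of expressed *flp* genes, 30 of 31, was between 24 (limit of 100 FPKM) and 30 under all alternatives, with 28 by the lower bound and 27 by TPM over 10, and it was 30 with either library left out. The share of summed FPKM, 3.35%, was 4.10% of the protein-coding total and 2.34% without *flp-28*, a setting chosen after seeing the data, and 2.97% to 3.74% with a library left out. The family median of 408 FPKM was 260 without library 1 and 536 without library 2. The median log2 ratio between libraries, -0.56 when centred, was -0.44 uncentred, -0.30 in TPM and -0.026 with upper-quartile scaling, since these scalings also moved all expressed genes, and -0.51 with *flp-23* included, a setting added after seeing the data. The 12 members 2-fold apart were 13 with a pseudocount of 0.1 and 9 uncentred. Upper-quartile scaling moved the mean of 1 member by more than its SD and TPM, which changes the unit, that of 18. No paired analysis was possible because only the wild-type group was analysed. Counts of RFamide copies per precursor and promoter motifs were not run. With 2 libraries and no counts, the depth behind a low value such as that of *flp-1* or *flp-3* in library 2 is unknown.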
